A study of Homo sapiens with 8 samples.

Results

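The levels of 9 genes of the MHC class I pathway were followed in U2OS cells, an established human osteosarcoma line, with and without knockdown of WSB2 and with and without TNF-α. They were taken by symbol from a list (HLA-B, HLA-C, HLA-E, B2M, TAP1, TAP2, TAPBP, PSMB8 and PSMB9), each symbol was matched to 1 gene identifier in release 29 of GENCODE, and all 9 were found among the 58735 genes measured and among the 16528 with enough reads to be tested. TNF-α raised TAP1 2.98-fold, TAPBP 2.29-fold and TAP2 1.48-fold in control cells, while HLA-B, HLA-C, HLA-E, B2M, PSMB8 and PSMB9 did not pass the test there. Of all tested genes 3.10% were called higher and 1.14% lower with TNF-α in control cells. With TNF-α present, none of the 9 passed the test between KD and control cells, where 0.0605% of all tested genes were called higher and 0.0545% lower. Without TNF-α, 7 of the 9 were lower in KD cells, where 30.2% of all tested genes were called lower as well, in a pair of libraries that stood apart from the other 6 in composition.

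MHC class I molecules carry short peptides from proteins made inside the cell to the cell surface, where CD8+ T cells and natural killer cells read them. The peptides are cut by the proteasome, which can exchange its standard catalytic subunits for the immunoproteasome subunits, are moved into the endoplasmic reticulum by the TAP transporter, and are loaded there onto a heavy chain paired with β2-microglobulin with the help of tapasin. The genes of this pathway are known to respond to interferons, among others through IRF factors, to the transactivator NLRC5, and to NF-κB, the transcription factor that TNF-α activates, and the question put to these data was how they stood in cells with and without the knockdown of WSB2, a substrate receptor of a ubiquitin ligase that the study examined as a regulator of the NF-κB subunit RelA.

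All cells carried a lentiviral shRNA and were selected as stable lines. Those with a control shRNA are called control cells here (labelled shControl, genotype WT) and those with an shRNA against WSB2 are called KD cells (labelled shWSB2), and each was either unstimulated (labelled normal) or given TNF-α for 5 h. Each of the 4 groups had 2 libraries of total RNA, which makes 8 in all, and the labels do not say whether the replicates came from separate cultures, so that p-values measure the spread between these libraries, which may be technical. The identity of the WSB2 shRNA and the concentration of TNF-α are not given in the sources used here. Levels are FPKM, which scale the fragments of a gene to the length of its exons and the size of the library, and rest on 15601098 and 16836522 reads in the unstimulated control libraries, 16409810 and 15950294 in the unstimulated KD libraries, 16705041 and 16554410 in the control libraries with TNF-α, and 18677023 and 16948782 in the KD libraries with TNF-α. Differences are given on the log2(FPKM + 1) scale, which understates the change of low genes, with the standard error and the adjusted p of limma, a linear model with moderated variances fitted over all 8 libraries and all tested genes, and a gene was called at an adjusted p under 0.05.

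The labels were first checked on the target. WSB2 stood at 27.7 and 28.0 FPKM in unstimulated control cells, 8.38 and 8.52 in unstimulated KD cells, 25.0 and 25.3 in control cells with TNF-α, and 9.002 and 9.183 in KD cells with TNF-α. All 4 KD libraries were below all 4 control libraries, with a log2 fold change of −1.61 ± 0.07 (SE, n = 2 per group, adjusted p = 1.19e-04, limma) without TNF-α and −1.37 ± 0.07 (adjusted p = 0.00113) with it, where the adjusted p was 0.0519 when the second stimulated KD library was left out. The stimulation was visible in 4 genes that NF-κB is known to induce, NFKBIA, TNFAIP3, ICAM1 and BIRC3, all called higher with TNF-α in control cells, with log2 fold changes of 2.76, 3.87, 1.23 and 2.78. In that comparison 3.10% of all tested genes were called higher. Markers of the osteoblast lineage summed to between 394 and 537 FPKM over the libraries, with the highest single value in SPARC, a matrix protein. Their sums were 402 and 394 FPKM in the unstimulated KD libraries and at least 510 in the others. Of these 5 markers 2 were called higher and 3 lower in KD cells without TNF-α, against 29.8% and 30.2% of all tested genes. The 5 leukocyte markers summed to between 0.0851 and 0.534 FPKM. Of these only ITGAM, an integrin of myeloid cells, passed the filter on low reads, and it was called higher with TNF-α in control cells at means of 0.0614 and 0.359 FPKM (log2 fold change 0.36, adjusted p = 0.0362, limma), but not after a correction for GC content and length of genes, and its part in the results was not tested. In bulk RNA, fewer cells that express a gene and less of its RNA per cell cannot be told apart.

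Both unstimulated KD libraries stood apart from the other 6. Mitochondrial genes took 4.10% and 4.42% of their reads against 1.11% to 2.03% elsewhere, the mean GC content of their genes weighted by reads was 50.6% and 50.1% against 53.2% to 53.8%, and 26225 and 26397 genes had a read in them against 22072 to 22957. The library size behind their FPKM values was 1.21 times the total reads in each, against 0.925 to 1.03 times in the others. Since these libraries are the whole of their group, no comparison of unstimulated KD cells could be made without them, and the comparisons of the 9 genes that rest on them are given below under other scalings as well. WSB2 without TNF-α was at −1.35 with total reads, −1.84 with upper-quartile factors and −1.42 after a correction for the GC content and length of genes, and was called lower in each.

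8 of the 9 genes had windows in RefSeq's table of start sites (GRCh38.p14, 250 bases before to 50 after the start), and these were searched on both strands for letters of known regulatory motifs. TAP1 and PSMB8 have 2 windows each, so that a count of genes with a match and the share of windows with one are not on the same footing. The NF-κB motif GGNNNTTCC was found in 5 of the 8 (HLA-B, B2M, TAP1, TAPBP and PSMB8) and in 20.1% of all 35116 windows, and the core of the interferon response element, GAAANNGAA, in 5 of the 8 (B2M, TAP1, TAP2, TAPBP and PSMB8) and in 8.11% of all windows. The stretches of 30 bases around these letters are shown for the 3 genes that TNF-α raised in control cells and for HLA-B and B2M, which did not pass the test there, because the same kinds of letters stand before both. They are written 5′ to 3′ on the strand of the gene, with the matched letters, or their reverse complement, in capitals. Further NF-κB matches, 96 bases before the start of TAPBP and 4 before that of B2M, are not shown.
TAP1, interferon response core, overlapping matches on the other strand, chr6:32853815-32853844, minus strand: ggccgctTTCGATTTCGCTTTCccctaaat
TAP1, NF-κB motif, chr6:32853756-32853785, minus strand: cctgttcctgGGACTTTCCgagagccccgc
TAPBP, NF-κB motif, chr6:33314114-33314143, minus strand: aaccagagcgGGGATTTCCaccgcccctca
TAPBP, interferon response core, overlapping matches, chr6:33314079-33314108, minus strand: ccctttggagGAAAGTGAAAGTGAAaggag
TAP2, interferon response core, chr6:32838778-32838807, minus strand: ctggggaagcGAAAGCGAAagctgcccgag
HLA-B, NF-κB motif, chr6:31357337-31357366, minus strand: gcgcagcgttGGGGATTCCCcactcccctg
B2M, interferon response core, overlapping matches, then NF-κB motif on the other strand, chr15:44711372-44711401, plus strand: aGAAAAGGAAACTGAAaacgGGAAAGTCCc

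In HLA-B the capitals cover 2 overlapping matches, since the stricter form GGGANTCCC, found in 0.877% of all windows, was present in HLA-B alone of the 8. The letters CCAAT were in windows of HLA-B, HLA-C, B2M, TAP1 and PSMB9 and in 34.6% of all windows, and TGACGTCA in none of the 8 and in 1.85%. A match is a description of letters, and binding at these stretches was not analysed here.

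The genes of the transporter and of its loading partner were the ones called with TNF-α in control cells. TAP1 and TAP2 encode the subunits of the transporter that brings peptides into the endoplasmic reticulum, and TAPBP encodes tapasin, which bridges the transporter to the class I molecule. TAP1 (ENSG00000168394, chromosome 6, 32845209 to 32853978 on GRCh38, minus strand) stood at 10.6 and 9.63 FPKM in unstimulated control cells, 28.9 and 31.4 with TNF-α, 6.29 and 6.52 in unstimulated KD cells, and 30.1 and 27.6 in KD cells with TNF-α. All 4 stimulated libraries were far above all 4 unstimulated ones, and control and KD libraries lay among each other once stimulated. TAPBP (ENSG00000231925, chromosome 6, 33299694 to 33314387, minus strand) showed the same order, with 30.3 and 33.0 FPKM in unstimulated control cells, 72.1 and 73.0 with TNF-α, 21.0 and 21.8 in unstimulated KD cells, and 77.0 and 71.7 in KD cells with TNF-α. TAP2 (ENSG00000204267, chromosome 6, 32821833 to 32838780, minus strand) was the lowest of the 9 in 3 of the 4 groups, with 5.36 and 5.01 FPKM in unstimulated control cells, 7.89 and 7.47 with TNF-α, 4.69 and 4.80 in unstimulated KD cells, and 8.29 and 8.34 in KD cells with TNF-α. Here too stimulated and unstimulated libraries did not overlap, while the unstimulated KD libraries were close below those of control cells.

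In control cells the log2 fold change with TNF-α was 1.49 ± 0.09 for TAP1 (SE, n = 2 per group, adjusted p = 8.24e-05, limma), 1.17 ± 0.08 for TAPBP (adjusted p = 1.75e-04) and 0.49 ± 0.08 for TAP2 (adjusted p = 0.0208). TAP1 thus moved from 1.95 times the level of TAP2 to 3.93 times, as means of the ratio per library. These 3 of 9 genes were called higher and 0 of 9 lower, against 3.10% and 1.14% of all tested genes. The calls of TAP1 and TAPBP held under all 17 alternative settings, whereas that of TAP2 was lost in 7 of them, with an adjusted p of 0.173 when only the 4 control libraries were fitted, of 0.155 and 0.119 when the stimulated control library 1 or 2 was left out, and of 0.0522 to 0.0666 without any 1 of the 4 KD libraries. TAP2 shares 32.3% of its exon bases with the protein-coding gene AL669918.1 on the same strand, which was listed at 0 in every library, and how reads in the shared exons were assigned is not stated, so that the level of TAP2 is uncertain.

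**Figure D1:**
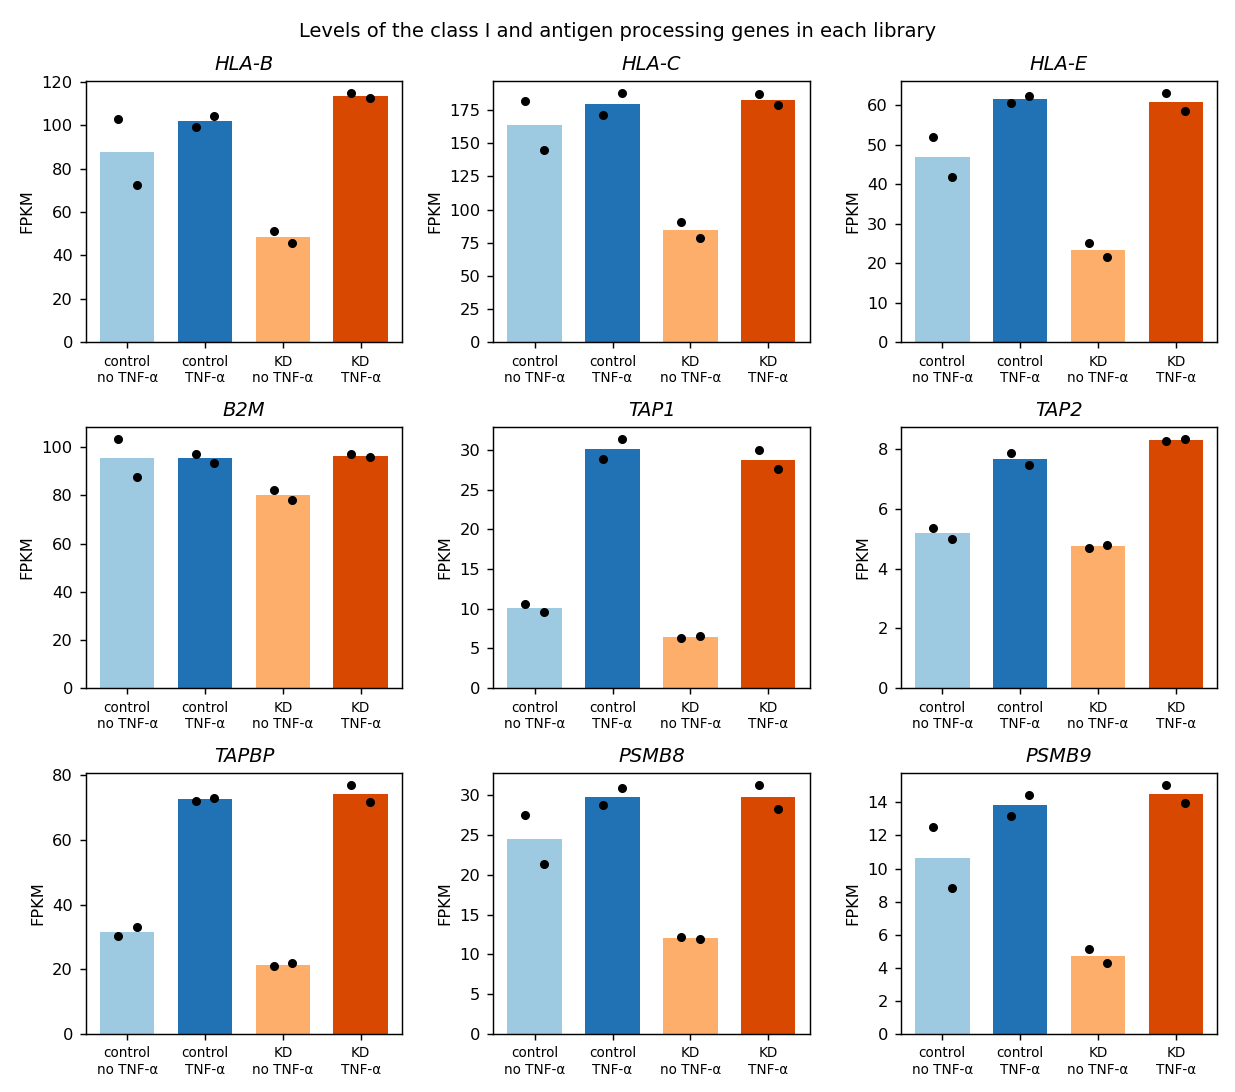
FPKM of each of the 9 genes by group, with a point for each library and a bar for the mean of 2 libraries, each panel on its own axis from 0. TAP1, TAPBP, TAP2, HLA-E, PSMB8 and PSMB9 are higher in all stimulated than in all unstimulated libraries, by the widest margin in TAP1 and TAPBP, and for the 9 genes the bars of control and KD cells with TNF-α are close to each other.

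The heavy chains were abundant and were not called with TNF-α in control cells with the values as deposited. HLA-B and HLA-C encode classical heavy chains, which present peptides to T cells, and HLA-E encodes a chain of little variation recognised on natural killer cells by CD94 with NKG2A. HLA-B (ENSG00000234745, chromosome 6, 31269491 to 31357188, minus strand) stood at 103 and 72.4 FPKM in unstimulated control cells, 99.5 and 104 with TNF-α, 51.4 and 45.6 in unstimulated KD cells, and 115 and 113 in KD cells with TNF-α. The unstimulated control libraries lay far apart, the first among the stimulated ones and the second below them, and the unstimulated KD libraries were the lowest. HLA-C (ENSG00000204525, chromosome 6, 31268749 to 31272130, minus strand), the most abundant of the 9 by mean level in every group, stood at 182 and 145 FPKM in unstimulated control cells, 171 and 188 with TNF-α, 91.0 and 78.4 in unstimulated KD cells, and 187 and 179 in KD cells with TNF-α. Its unstimulated and stimulated control libraries overlapped. HLA-E (ENSG00000204592, chromosome 6, 30489467 to 30494205, plus strand) stood at 52.0 and 41.7 FPKM in unstimulated control cells, 60.6 and 62.3 with TNF-α, 25.1 and 21.4 in unstimulated KD cells, and 62.9 and 58.5 in KD cells with TNF-α, with no overlap between unstimulated and stimulated libraries.

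With TNF-α in control cells the log2 fold change was 0.24 ± 0.15 for HLA-B (SE, n = 2 per group, adjusted p = 0.487, limma), 0.14 ± 0.13 for HLA-C (adjusted p = 0.647) and 0.39 ± 0.12 for HLA-E (adjusted p = 0.137), whose 95% intervals reached 0.59, 0.45 and 0.67. The result for these genes turned on the unstimulated control libraries. Without the first of them HLA-B, HLA-E, PSMB8 and PSMB9 were called as well, with log2 fold changes of 0.49, 0.55, 0.46 and 0.59 and adjusted p-values of 0.0271, 0.0322, 0.0312 and 0.0395, so that 7 of the 9 were called against 3.26% of all tested genes, and without the second HLA-B and HLA-C were at −0.01 and −0.02. HLA-E was also called after correcting for GC content and length (0.36, adjusted p = 0.0296). HLA-B and HLA-C are alike in parts and their alleles vary, so that reads can be lost or shared between them, while stretches of 100 bases found in another gene made up 0% of the transcript windows of HLA-B, 0.126% of those of HLA-C and 0.491% of those of HLA-E in GENCODE.

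B2M, which encodes the light chain β2-microglobulin common to all class I molecules, had the smallest change with TNF-α in both kinds of cells with the values as deposited, though not in KD cells after the correction for GC content and length, where it was at 0.86 and HLA-C at 0.45. It is the only one of them on chromosome 15 (ENSG00000166710, 44711487 to 44718877, plus strand) and stood at 103 and 87.5 FPKM in unstimulated control cells, 97.2 and 93.5 with TNF-α, 82.4 and 78.3 in unstimulated KD cells, and 97.3 and 95.8 in KD cells with TNF-α. The stimulated control libraries lay between the unstimulated ones, and the log2 fold change with TNF-α in control cells was 0.0032 ± 0.0958 (SE, n = 2 per group, adjusted p = 0.993, limma), with a 95% interval from −0.22 to 0.23. The sum of HLA-B, HLA-C and HLA-E was 3.11 times B2M in unstimulated control cells, 3.601 times in control cells and 3.70 times in KD cells with TNF-α, and 1.94 times in unstimulated KD cells, as mean ratios of FPKM. The lower ratio in unstimulated KD cells did not hold after the correction for GC content and length, where KD against control without TNF-α was at −0.23, −0.30 and −0.42 for HLA-B, HLA-C and HLA-E and lower still, at −0.86, for B2M.

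The immunoproteasome subunits were not called with TNF-α in control cells by limma over all 8 libraries. PSMB8 and PSMB9 encode catalytic subunits that replace PSMB5 and PSMB6 in the immunoproteasome. PSMB8 (ENSG00000204264, chromosome 6, 32840717 to 32844703, minus strand) stood at 27.5 and 21.4 FPKM in unstimulated control cells, 28.8 and 30.9 with TNF-α, 12.2 and 11.9 in unstimulated KD cells, and 31.3 and 28.3 in KD cells with TNF-α. PSMB9 (ENSG00000240065, chromosome 6, 32844136 to 32859585, plus strand) stood at 12.5 and 8.84 FPKM in unstimulated control cells, 13.2 and 14.5 with TNF-α, 5.12 and 4.30 in unstimulated KD cells, and 15.05 and 13.96 in KD cells with TNF-α. For both genes all stimulated libraries were above all unstimulated ones, but the first unstimulated control library was close below them. The log2 fold change with TNF-α in control cells was 0.29 ± 0.12 for PSMB8 (SE, n = 2 per group, adjusted p = 0.268, limma) and 0.36 ± 0.15 for PSMB9 (adjusted p = 0.272). Their unadjusted p-values of 0.0439 and 0.0455 lay below 0.05, as did that of HLA-E with 0.0120, which makes 6 of the 9 together with the 3 genes called. Among all 16528 tested genes 2899 had an unadjusted p below 0.05 in this comparison (limma).

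In unstimulated control cells the mean levels ran from HLA-C over B2M, HLA-B, HLA-E, TAPBP, PSMB8, PSMB9 and TAP1 down to TAP2. B2M and HLA-B, at 95.4 ± 11.2 and 87.6 ± 21.5 FPKM (SD, n = 2), and PSMB9 and TAP1, at 10.7 ± 2.58 and 10.1 ± 0.670 FPKM, did not differ beyond their spread. With TNF-α in control cells TAPBP, at 72.6 ± 0.618 FPKM, stood above HLA-E at 61.5 ± 1.18, and TAP1, at 30.1 ± 1.74, stood beside PSMB8 at 29.9 ± 1.45, from which it did not differ beyond its spread. In KD cells with TNF-α the order was the same but for TAP1, at 28.8 ± 1.77 FPKM, and PSMB8, at 29.8 ± 2.09, which again did not differ beyond their spread.

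With TNF-α present, KD and control cells had the same genes at levels that the test did not separate. The log2 fold changes of KD against control ran from −0.06 for TAP1 to 0.16 for HLA-B with a median of 0.03, and the adjusted p-values from 0.878 to 1.00 (limma). None of the 9 was called in either direction, none had an unadjusted p below 0.05, and a voom fit of the recovered reads also called 0 of 9. Few genes of any kind were called here, 0.0605% of all tested genes higher and 0.0545% lower, and 1348 of the 16528 had an unadjusted p below 0.05. The 95% intervals of the 9 genes lay between −0.30 and 0.51, that is between 0.813 and 1.43 times the control level of FPKM + 1, which bounds a difference without showing that the cells were alike. HLA-B was at 102 ± 3.50 FPKM in control cells and 114 ± 1.37 in KD cells (SD, n = 2), the only one of the 9 apart from TAP2 whose libraries did not overlap between these groups. For TAP2 the levels were 7.68 ± 0.296 and 8.31 ± 0.0346 FPKM.

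Without TNF-α, 7 of the 9 genes were lower in KD cells. The lowest ratios of mean FPKM in KD to control cells were those of PSMB9 with 0.442, PSMB8 with 0.492, HLA-E with 0.497, HLA-C with 0.518 and HLA-B with 0.553. TAP1 and TAPBP were at 0.634 and 0.676 times the control level. B2M and TAP2, at 0.842 and 0.916 times, did not pass the test. In none of the 9 did the libraries of these groups overlap, all KD libraries being lower.

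The log2 fold change was −1.02 ± 0.15 for PSMB9 (SE, n = 2 per group, adjusted p = 8.71e-04, limma), −0.98 ± 0.12 for HLA-E (adjusted p = 3.99e-04), −0.94 ± 0.13 for HLA-C (adjusted p = 6.40e-04) and −0.58 ± 0.09 for TAP1 (adjusted p = 8.30e-04), and for B2M and TAP2 it was −0.24 ± 0.10 (adjusted p = 0.0604) and −0.11 ± 0.08 (adjusted p = 0.314). B2M was called by voom (adjusted p = 0.0462) and when the second unstimulated control library was left out (−0.36, adjusted p = 0.00286). The counts of 7 lower and 0 higher stand against 30.2% and 29.8% of all tested genes, so that a call by itself sets none of the 9 apart in this comparison. The composition of the libraries moved with this result. After each library was corrected by a smooth trend on the GC content and length of its genes, HLA-B was at −0.23 (adjusted p = 0.0850), HLA-C at −0.30 (adjusted p = 0.00816), HLA-E at −0.42 (adjusted p = 0.00281), TAP1 at −0.28 (adjusted p = 0.0160) and TAPBP at −0.04 (adjusted p = 0.736). PSMB8 and PSMB9 were then at −0.60 (adjusted p = 0.00194) and −0.79 (adjusted p = 0.00259). B2M moved the other way, to −0.86 (adjusted p = 9.99e-04), and it has the lowest GC content of the 9 in its exons, 40.6%, against 50.7% to 61.3% in the others.

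Scaling to total reads instead of the deposited factors shifted the median of all tested genes from −0.0010 to 0.13 in this comparison, and upper-quartile factors shifted it to −0.11. Of all calls 49.7% were higher as deposited, 65.3% with total reads and 37.8% with upper-quartile factors. With total reads HLA-B, HLA-C, HLA-E, PSMB8 and PSMB9 were at −0.54, −0.66, −0.70, −0.69 and −0.78, and the same 7 genes were called lower, against 20.9% of all tested genes, while B2M and TAP2 turned to 0.04 and 0.13, beside the median of 0.13 over all genes. With upper-quartile factors all 9 were called lower, against 37.9% of all tested genes. The part of library composition in these differences was not tested.

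**Figure D2:**
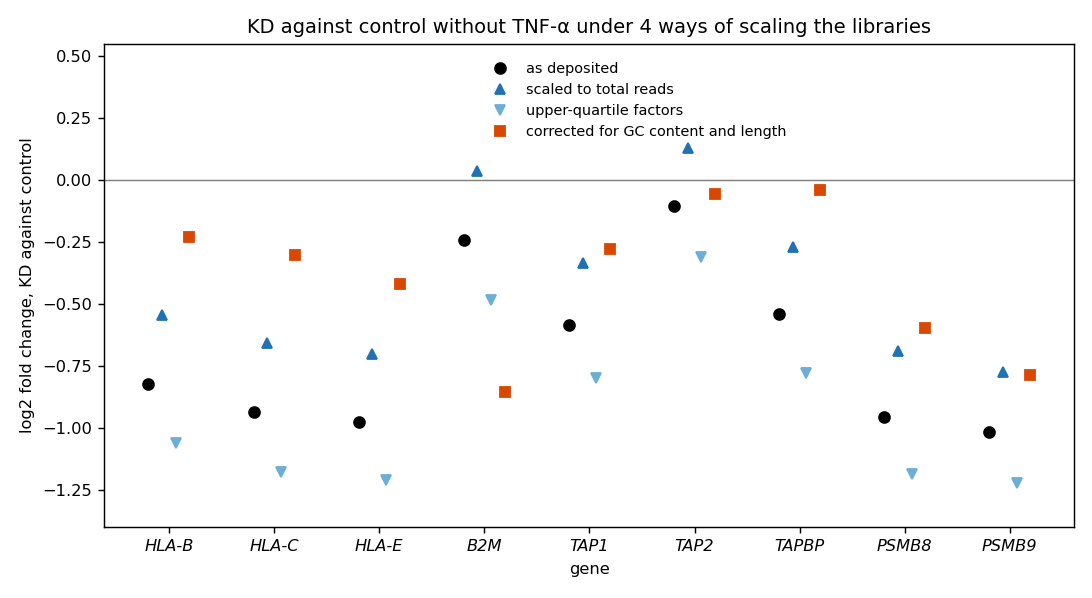
Log2 fold change of KD against control cells without TNF-α (y axis) for each of the 9 genes (x axis) with the values as deposited, scaled to total reads, with upper-quartile factors, and corrected for GC content and gene length. PSMB8 and PSMB9 stay below −0.5 in all 4, TAPBP comes close to 0 after the correction, and B2M and TAP2 are above 0 with total reads.

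In KD cells TNF-α was followed by higher levels of all 9 genes. The largest ratios of mean FPKM were those of TAP1 with 4.50, TAPBP with 3.48 and PSMB9 with 3.08, followed by HLA-E with 2.61, PSMB8 with 2.48, HLA-B with 2.35 and HLA-C with 2.16. TAP2 and B2M had the smallest, 1.75 and 1.202. For each of the 9 both stimulated KD libraries were above both unstimulated KD libraries.

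The log2 fold change was 2.01 ± 0.09 for TAP1 (SE, n = 2 per group, adjusted p = 1.03e-05, limma), 1.75 ± 0.08 for TAPBP (adjusted p = 1.23e-05), 1.35 ± 0.12 for HLA-E (adjusted p = 9.35e-05), 1.22 ± 0.15 for HLA-B (adjusted p = 3.31e-04) and 0.26 ± 0.10 for B2M (adjusted p = 0.0434). The 9 called higher and 0 called lower stand against 31.1% and 31.4% of all tested genes. With total reads, where the median of all genes was −0.19 and 31.4% of calls were higher in place of 49.8%, B2M turned to −0.11 (adjusted p = 0.240) and the other 8 kept their calls, against 20.02% of all tested genes, and with upper-quartile factors 60.1% of calls were higher. After the correction for GC content and length all 9 were called higher, against 28.9% of all genes in that fit, with HLA-B at 0.59, HLA-C at 0.45, HLA-E at 0.77, TAP1 at 1.64 and TAPBP at 1.18, and with B2M at 0.86 (adjusted p = 6.62e-04). Leaving out any 1 of the 4 KD libraries or of the 2 stimulated control libraries also ended the call of B2M, with adjusted p-values from 0.0734 to 0.185. These comparisons share the unstimulated KD libraries with the one before.

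**Figure D3:**
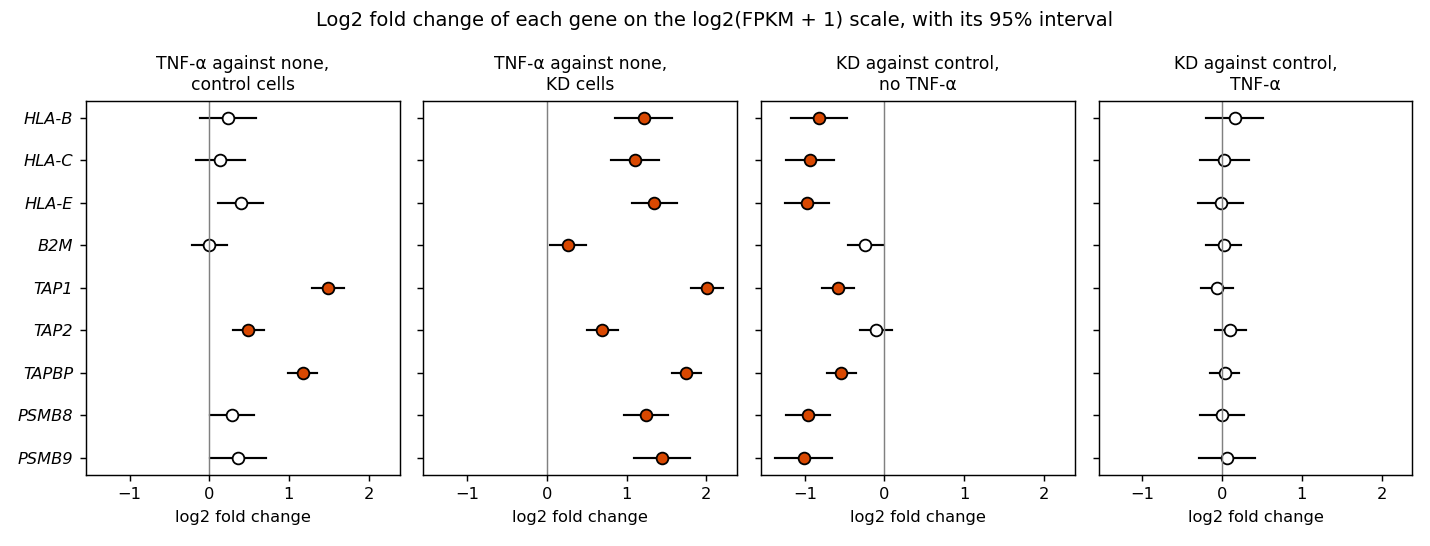
Log2 fold change with its 95% interval (x axis) of each of the 9 genes (y axis) in 4 comparisons, with filled points at an adjusted p under 0.05. TAP1, TAP2 and TAPBP are filled for TNF-α in control cells, all 9 for TNF-α in KD cells, 7 for KD without TNF-α, and none for KD with TNF-α.

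The change with TNF-α was larger in KD than in control cells for 7 of the 9 genes, by the test of the difference itself (limma, interaction of knockdown and TNF-α). The difference in log2 fold change was 1.08 ± 0.22 for PSMB9 (SE, adjusted p = 0.00584), 0.98 ± 0.22 for HLA-B (adjusted p = 0.00855), 0.97 ± 0.19 for HLA-C (adjusted p = 0.00502), 0.96 ± 0.17 for HLA-E (adjusted p = 0.00390) and 0.95 ± 0.17 for PSMB8 (adjusted p = 0.00384). It was smaller for TAPBP and TAP1, with 0.58 ± 0.11 (adjusted p = 0.00499) and 0.52 ± 0.12 (adjusted p = 0.0109), and B2M and TAP2 did not pass, with 0.26 (adjusted p = 0.154) and 0.21 (adjusted p = 0.193). The levels show where the difference lay, since stimulated control and KD cells stood together and the unstimulated KD libraries stood low.

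Of all tested genes 23.8% were called higher and 22.3% lower by the same test. With total reads and with the correction for GC content and length, the interaction was called for 5 of the 9, against 14.8% and 19.1% of all tested genes. TAP1 and TAPBP were lost in both, at 0.25 (adjusted p = 0.0985) and 0.29 (adjusted p = 0.0938) with total reads and at 0.20 (adjusted p = 0.166) and 0.07 (adjusted p = 0.693) after the correction. TAP1 was also lost without the first stimulated control library (adjusted p = 0.0514) or the first stimulated KD library (adjusted p = 0.0556), and B2M was called without the second unstimulated control library (0.38, adjusted p = 0.00891). HLA-B was at 0.39 (adjusted p = 0.0632) after the correction, which in turn called B2M at 0.88 (adjusted p = 0.00819). Total reads moved the median of all genes to −0.14 and the share of higher calls from 51.7% to 32.9%, and upper-quartile factors moved them to 0.12 and 64.9% and called all 9, against 31.1% of all tested genes. PSMB8, PSMB9, HLA-C and HLA-E kept their calls under each of the 16 alternatives that allow this test.

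Other genes of the pathway were taken from lists of neighbouring functions. Among the other class I and class I-like chains 7 of 9 could be tested and 0 were called with TNF-α in control cells by limma, 1 of them with an unadjusted p below 0.05, and 0 by voom. Of all tested genes 3.10% were called higher and 1.14% lower by limma in that comparison. HLA-G, the heavy chain known from the placenta, was listed at 0 in every library. Of 6 genes of peptide loading and trimming, among them the chaperones CALR and CANX and the trimming enzymes ERAP1 and ERAP2, 0 were called in control cells by limma, against the same 3.10% and 1.14% of all tested genes. There was 1 at an unadjusted p below 0.05, and 0 were called by voom.

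The partners of the immunoproteasome were at log2 fold changes of 0.72 for PSMB10, the third catalytic subunit (adjusted p = 0.0949), 0.26 and 0.22 for the activator subunits PSME1 and PSME2, and 0.06 for the assembly factor POMP in control cells. None of the 4 was called by limma with the values as deposited, where 3.10% of all tested genes were called higher and 1.14% lower. There was 1 at an unadjusted p below 0.05, voom called 1, and PSMB10 was called after the correction for GC content and length (0.69, adjusted p = 0.0344). None of the standard subunits PSMB5, PSMB6 and PSMB7 was called there by either tool or had an unadjusted p below 0.05, with values of 0.10, −0.04 and −0.05. In the unstimulated KD libraries, which stood apart and where 30.2% of all tested genes were called lower, all 3 standard subunits were called lower, with −1.21, −1.25 and −1.04, beside PSMB8 with −0.96 and PSMB9 with −1.02, and after the correction for GC content and length they were called at −0.87, −0.83 and −0.88. The ratio of PSMB8 to PSMB5 accordingly ranged over the group means only from 0.181 to 0.211, and that of PSMB9 to PSMB6 from 0.0946 in unstimulated control cells to 0.128 and 0.147 in control and KD cells with TNF-α.

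Transcription factors known to act on class I genes were looked at as the longest of the lists. Of 19 such regulators 7 were called higher and 0 lower with TNF-α in control cells, against 3.10% and 1.14% of all tested genes, with a median of 0.26 against 0.0085. RELB, an NF-κB subunit, rose from 15.8 and 14.0 FPKM to 93.5 and 98.6 (log2 fold change 2.61, adjusted p = 1.71e-05, limma), NFKB2 and NFKB1, which encode NF-κB precursors, rose by 2.03 and 1.95, and RELA rose by 0.51. IRF1, an activator of the interferon response element, rose from 1.63 and 1.29 FPKM to 6.82 and 7.43 (log2 fold change 1.73, adjusted p = 2.70e-04), and IRF2 and the X box factor RFX5 rose by 0.74 and 0.59. NLRC5, the transactivator of class I genes, was at 1.74 and 1.66 FPKM and at 2.10 and 2.07 with TNF-α (0.19, adjusted p = 0.375). With TNF-α 0 of the 19 were called between KD and control cells by limma, with 1 at an unadjusted p below 0.05, and 0 by voom. Of all tested genes 0.0605% were called higher and 0.0545% lower there by limma.

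**Figure D4:**
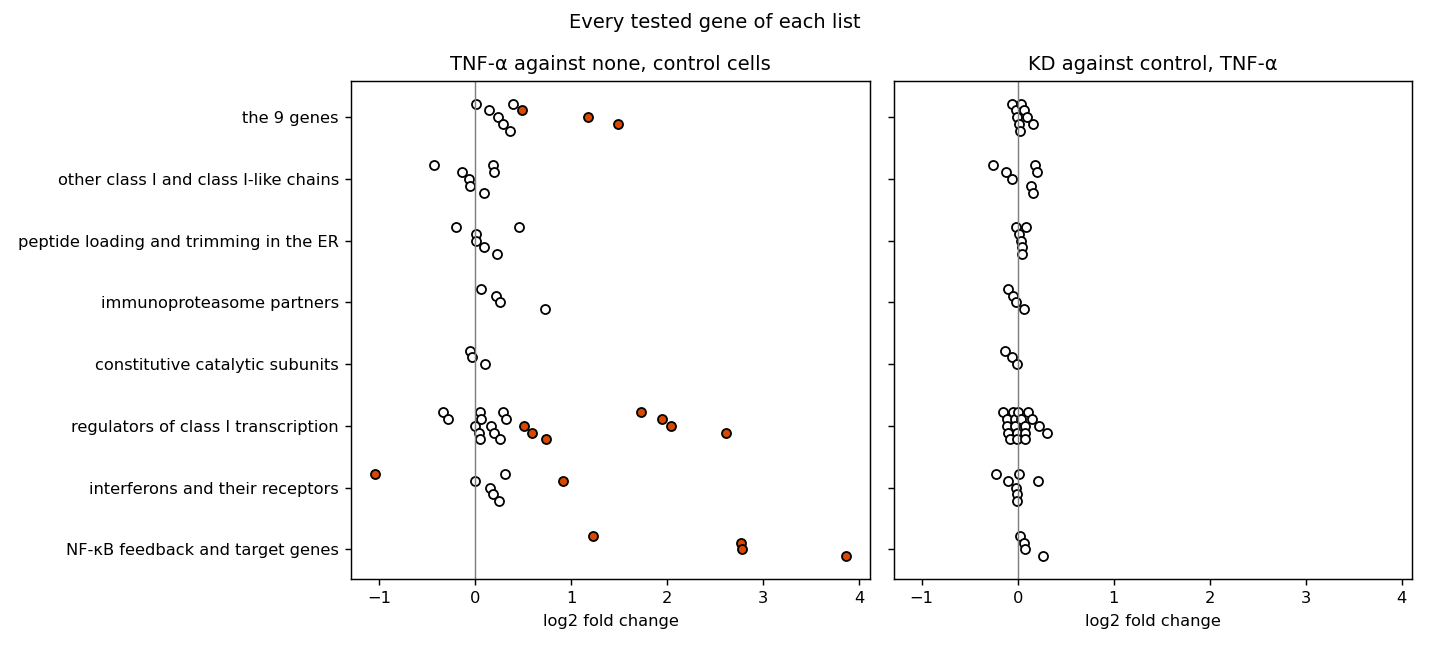
Log2 fold change (x axis) of every tested gene of the lists shown as rows with TNF-α in control cells (left) and of KD against control cells with TNF-α (right), with filled points at an adjusted p under 0.05. On the left the filled points are TAP1, TAP2 and TAPBP, 7 regulators, IFNGR2 and SOCS1, and the 4 NF-κB feedback and target genes, and on the right no point is filled.

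Of 3 interferon genes, IFNB1 and IFNG had no read in any of the 8 libraries, which allows up to 3 reads per library by counting error alone, and IFNL1, which encodes interferon-λ1, had 17 reads in all and at most 6 in a library, too few to be tested. Of 10 genes of interferons, their receptors and signalling 7 could be tested. IFNGR2, a subunit of the interferon-γ receptor, was called higher with TNF-α in control cells (0.91, adjusted p = 0.00133, limma), and SOCS1, an inhibitor of JAK kinases, was called lower, from 9.10 and 6.66 FPKM to 3.64 and 2.92 (−1.04, adjusted p = 0.0198). These calls stand against 3.10% of all tested genes called higher and 1.14% called lower.

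All of the 9 genes but B2M lie in the MHC on chromosome 6, and TAP2, PSMB8, TAP1 and PSMB9 follow each other there so closely that some of their models overlap. PSMB8 shares 20.6% and TAP1 9.49% of exon bases with the long noncoding RNA PSMB8-AS1 on the opposite strand, which was at 0.155 to 0.681 FPKM, and PSMB8 and PSMB9 share 139 bases on opposite strands. PSMB9 shares 5.66% of its exon bases with PSMB8-AS1 on the same strand. HLA-B shares 17.8% of its exon bases with the pseudogene AL671883.2 on the opposite strand, which had 8 reads in all libraries together, and 35 bases with HLA-C. Whether reads were counted by strand is not stated, and without strand reads of such partners cannot be told apart.

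**Figure D5:**
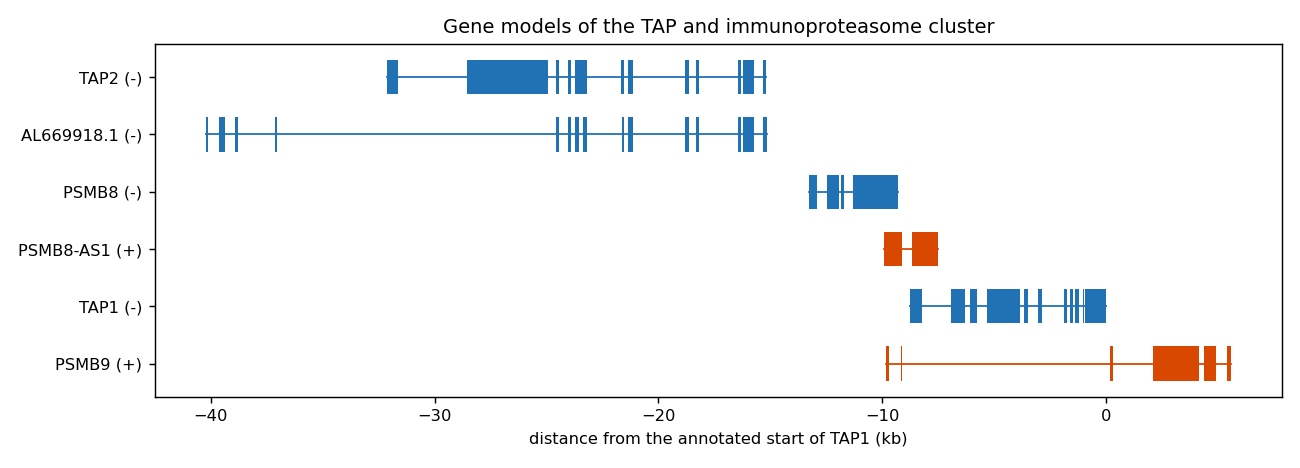
Exons (boxes) of TAP2, PSMB8, TAP1 and PSMB9 and of the genes AL669918.1 and PSMB8-AS1 that overlap them, by distance from the annotated start of TAP1 in kb (x axis), with the strand given beside each name and shown by colour. The exons of AL669918.1 lie over those of TAP2 from its start, and PSMB8-AS1 lies over the start of PSMB8 and the end of TAP1.

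Outside these lists, the 5 tested genes most like the 9 were found by the Pearson correlation over the 8 libraries of their log2(FPKM + 1) with the mean of the 9, each scaled to a mean of 0 and an SD of 1. They were TRAF2, an adaptor of the TNF receptors (r = 0.999), UPP1, a uridine phosphorylase (r = 0.998), and DDX11, FAM110A and SPOUT1 (r = 0.996 each). TRAF2 stood at 47.9 and 36.5 FPKM in unstimulated control cells, 64.4 and 67.8 with TNF-α, 21.4 and 18.5 in unstimulated KD cells and 68.5 and 64.2 in KD cells with TNF-α. The points are the same 8 libraries that share 4 groups, so that these values only describe a common order, in which the unstimulated KD libraries were lowest.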

How the data were processed

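The authors deposited FPKM values for 58735 genes in each of 8 libraries (2 in each of 4 groups). The submitters' processing notes name CASAVA 1.8, fastp, HISAT2 2.0.5, featureCounts 1.5.0-p3, DESeq2 1.20.0 and GRCh38, with no role or order, and the study's methods name edgeR for its own comparisons. Whether counting used the strand is not given in the sources used here. Multiplied by exon length, 100% of the values came out as whole steps of 1 read (tolerance 0.001 read), which gave the reads per library and the library size used for scaling. All gene models match GENCODE 29.

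Log2(FPKM + 1) was tested with limma 3.58.1 in R 4.3.3, with a mean per group over all 8 libraries, a trend on mean expression and 4 residual degrees of freedom, for 5 comparisons. A gene was kept with 10 or more reads, scaled to the median depth, in 2 or more libraries and 15 or more in total, and p-values were adjusted by Benjamini-Hochberg over 16528 genes. The main fit used the deposited FPKM values and no count model was run, while a voom fit of the recovered reads stands beside the main fit. The 17 alternatives were a pseudocount of 0.1, no filter, a mean of at least 1 CPM, total reads, upper-quartile factors, voom, only the libraries compared, the replicate number as a block, each of 8 libraries left out, and a correction by splines (5 degrees of freedom) on GC content and length, available for 16520 of the tested genes. The genes named are the 9, genes of lists of related function (those called and abundant ones not called), and the 5 most alike by correlation. The 9 genes, the lists and the alternatives were chosen with earlier results of these data known. Some genes of these lists are not reported here. The script was tested on simulated data. Tables and plots were made in Python 3.11.15 (matplotlib 3.10.9, pandas 2.3.3, numpy 2.4.6).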

Additional observations from a re-analysis of the deposited data

Results flagged for a closer look

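The response to TNF-α differed between KD and control cells for 7 of the 9 genes, by limma's test of the interaction. The difference in log2 fold change, KD minus control cells, was 0.98 for HLA-B, 0.97 for HLA-C, 0.96 for HLA-E, 0.52 for TAP1, 0.58 for TAPBP, 0.95 for PSMB8 and 1.08 for PSMB9. The share of all tested genes called higher by the same test was 23.8%. All 7 values rest on the unstimulated KD libraries, which had 4.10% and 4.42% of their reads on mitochondrial genes against 1.11% to 2.03% in the other libraries. With the correction for GC content and length the values were 0.39, 0.34, 0.40, 0.20, 0.07, 0.59 and 0.83 in the same order, and the part of library composition in them was not tested. HLA-B, TAP1 and TAPBP were no longer called in that fit (adjusted p = 0.0632, 0.166 and 0.693, limma). With total reads TAP1 and TAPBP were not called either (adjusted p = 0.0985 and 0.0938). Groups of 2 libraries are too small to look for an outlying library.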

How the results depend on the processing

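Of the log2 fold changes of the 9 genes and WSB2 over the 17 alternatives, 730 kept their direction and their side of the threshold, 14 passed the threshold where they had not, 24 no longer passed, and 22 changed sign. The number of the 9 genes called higher with TNF-α in control cells was 3, against 3.10% of all tested genes, and it changed with the single library left out. With the replicate number as a block the counts were the same as without it, 0 with TNF-α and 7 lower without TNF-α for KD, 3 and 9 higher with TNF-α in control and KD cells, and 7 for the interaction. In that fit 29.7% of all tested genes were called lower for KD without TNF-α. Called higher were 2.52% and 30.8% with TNF-α in control and KD cells, and 23.4% for the interaction. For KD with TNF-α 0.0363% were called higher and 0.0242% lower. The labels do not say whether like-numbered libraries were paired. Their deviations correlated at 0.35 between unstimulated control and KD cells and at −0.19 to 0.02 between the other groups, which cannot show whether they were.

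With total reads B2M was at −0.0016 for KD with TNF-α, 0.039 for KD without it, −0.073 and −0.11 for TNF-α in control and KD cells and −0.040 for the interaction, and TAP2 at 0.13 for KD without TNF-α and −0.048 for the interaction, opposite in sign to the main values. Upper-quartile factors turned PSMB8 to 0.00030 for KD with TNF-α and B2M to −0.034 for TNF-α in control cells, where the correction for GC content and length gave −0.022. With 1 library left out, KD with TNF-α ran from −0.036 to 0.094 for HLA-C, −0.070 to 0.033 for HLA-E, −0.0096 to 0.046 for B2M, −0.017 to 0.085 for TAPBP and −0.071 to 0.067 for PSMB8, and TNF-α in control cells from −0.013 to 0.49 for HLA-B, −0.023 to 0.30 for HLA-C and −0.12 to 0.12 for B2M. The cause of these changes was not tested, and none of the values that changed sign under these settings was called except that of B2M for TNF-α in KD cells. The call of WSB2 with TNF-α was lost at an adjusted p of 0.0519 without the second stimulated KD library. With 2 libraries per group, the small differences of B2M between KD and control cells depended on the scaling and on single libraries. That of TAP2 without TNF-α depended on the scaling, and stayed between −0.15 and −0.065 with 1 library left out. The fit of only the libraries compared allows no interaction.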

Other observations

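The MHC class II pathway, which presents peptides from outside the cell and is known from professional antigen-presenting cells, was close to silent in the same libraries. The 9 class II genes looked at, HLA-DRA, HLA-DRB1, HLA-DPA1, HLA-DPB1, HLA-DQA1, HLA-DQB1, HLA-DMA, HLA-DMB and CD74, summed to between 0.313 and 0.869 FPKM, with HLA-DMA the most abundant and HLA-DQA1 listed at 0 in all 8 libraries. CIITA, the class II transactivator, was at a mean of 0.0473 FPKM in unstimulated control cells and 0.0431 with TNF-α. In KD cells its means were 0.0912 FPKM unstimulated and 0.0491 with TNF-α. CIITA had 13 to 40 reads in a library, near the floor, so that its values after the correction for GC content and length rest largely on the trend subtracted. After that correction it was called higher in KD than control cells without TNF-α (0.18, adjusted p = 0.0446, limma), against 23.3% of all genes in that fit. In that fit it was called lower with TNF-α in KD cells (−0.32, adjusted p = 0.00362, limma), against 27.3% of all genes. Of the 9 only HLA-DPA1 and HLA-DMA had enough reads to be tested, and limma on the values as deposited called 0 of the 2 in each of the 5 comparisons. Of all tested genes between 0.0545% and 31.4% were called in a given direction there, depending on the comparison. HLA-DMA was at an unadjusted p below 0.05 for KD against control cells with TNF-α, where voom called 0. After the correction for GC content and length HLA-DPA1 was called higher with TNF-α in KD cells (0.19, adjusted p = 0.0235, limma), against 28.9% of all genes in that fit. HLA-DPA1 had 4 to 14 reads in a library and was near the floor as well. Outside the 9 genes, HLA-F, a nonclassical class I heavy chain, was at a mean of 2.29 FPKM in unstimulated control cells and 2.67 with TNF-α, while MICA, a stress-induced ligand of natural killer cells, stood at 34.7 and 33.3 FPKM.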
